A study of Mus musculus with 4 samples.

Results

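A set of 10 genes that mark mature, responsive neutrophils were followed in sorted cells of the mouse femoral periosteum. They were the chemoattractant receptor genes Cxcr2, Fpr1 and Fpr2, the cytokine receptor gene Csf3r, the activating receptor genes Trem1 and Cd300lb, the adaptor gene Pram1, the enzyme gene Irg1, and S100a8 and S100a9, which encode the subunits of calprotectin. All 10 were found by gene name among the 47643 genes of the authors' deposited table, and all 10 were among the 17197 genes that had 10 or more reads in 2 or more libraries. They were chosen by their group means in this same comparison, in which they had a lower level in the labelled cells. Their folds are therefore a description and carry no test.

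All mice carried 1 allele of Sox9CreErt2, a Cre recombinase made from the Sox9 locus and active only with tamoxifen, and 1 allele of a Cre-dependent TdTomato reporter. Tamoxifen thus marks cells with an active Sox9 locus, together with their later progeny. Tamoxifen was injected 3 times, 100 µL at 20 mg/mL, with 48 h between injections, and the intact femora were collected 2 weeks later. Diaphyses of 18 femora from 9 mice were digested, and about 10000 cells with and 10000 without TdTomato were sorted over 2 collections. This gave 2 libraries of TdTomato-positive (labelled) and 2 of TdTomato-negative (unlabelled) cells. The labels give neither age nor sex, and they describe no gate other than TdTomato. Each library pooled mice, so differences between the libraries of a group measure the spread between pools.

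Neutrophils are made in the bone marrow, stay there until they are mature, and enter tissue when called by chemoattractants. Cxcr2 binds chemokines such as Cxcl1 and draws neutrophils out of the marrow. Csf3r is the receptor of granulocyte colony-stimulating factor, the main growth and survival signal of the lineage, and the formyl peptide receptors Fpr1 and Fpr2 sense products of bacteria and of damaged cells. Trem1 and Cd300lb signal through the adaptor Tyrobp, Pram1 is an adaptor of myeloid cells, and Irg1, also called Acod1, makes itaconate in activated myeloid cells. Calprotectin is the most abundant protein of the neutrophil cytosol.

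The promoters of these genes are shown because the genes had lower levels together and because the DNA motifs of the main neutrophil transcription factors can be read from them. RefSeq promoter windows of GRCm38.p6 matched all 10 genes. Each line gives up to 250 bases before the gene's start, 5′ to 3′ on the gene's strand, and capitals mark the letters GAGGAA or their reverse complement, the core recognised by PU.1, the product of Spi1. The windows are chr1:74153744-74153988 on the plus strand for Cxcr2, chr17:48232489-48232738 on the plus strand for Trem1, chr17:17887574-17887823 on the plus strand for Fpr2 and chr17:17883941-17884189 on the minus strand for Fpr1.
Cxcr2: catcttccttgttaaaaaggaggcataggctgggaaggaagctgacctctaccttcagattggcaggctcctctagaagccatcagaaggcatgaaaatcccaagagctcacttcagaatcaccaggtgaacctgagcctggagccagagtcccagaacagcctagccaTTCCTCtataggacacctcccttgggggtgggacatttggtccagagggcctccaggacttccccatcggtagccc
Trem1: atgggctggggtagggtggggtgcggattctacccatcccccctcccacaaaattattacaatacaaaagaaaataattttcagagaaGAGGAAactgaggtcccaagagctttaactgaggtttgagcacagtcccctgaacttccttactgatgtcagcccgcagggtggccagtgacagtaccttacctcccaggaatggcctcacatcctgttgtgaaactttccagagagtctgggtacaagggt
Fpr2: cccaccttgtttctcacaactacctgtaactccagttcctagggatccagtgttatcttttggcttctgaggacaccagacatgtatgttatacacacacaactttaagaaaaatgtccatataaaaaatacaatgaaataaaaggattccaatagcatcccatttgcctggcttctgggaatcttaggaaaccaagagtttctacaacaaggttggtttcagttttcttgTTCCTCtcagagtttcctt
Fpr1: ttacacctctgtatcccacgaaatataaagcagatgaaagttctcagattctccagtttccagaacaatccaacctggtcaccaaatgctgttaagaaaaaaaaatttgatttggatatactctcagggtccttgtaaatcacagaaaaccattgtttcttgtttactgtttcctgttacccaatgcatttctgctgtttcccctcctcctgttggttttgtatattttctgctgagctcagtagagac
GAGGAA was found on either strand within 250 bases upstream in 7 of the 10 genes, which were S100a8, Cxcr2, Fpr2, Csf3r, Trem1, Pram1 and Irg1. The same letters stood in 7639 of 32851 promoter windows of the same length, or 23.25%. TTGCNNAA, a form of the C/EBP motif, was found in 1 of the 10, S100a9, and in 3142 windows (9.564%). The neighbours Fpr1 and Fpr2, which lie 3883 bases apart, differed in this respect, with no match to either motif in the Fpr1 window. A match describes letters in the window and does not show binding.

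The deposited table gives group means and no column per library. The values of the 4 libraries were solved from its columns, and libraries are named here by the depth these imply: 32.0 and 41.6 M reads for the labelled libraries, and 17.0 and 74.0 M for the unlabelled ones. Levels are in RPKM, reads per kilobase of genomic span (introns included) per M reads. Where whole reads did not settle which value belonged to which library of a group, both assignments are given. The labelled pair was settled for 6 of the 10 genes, the unlabelled pair for 3, and both for Irg1, Fpr1 and Fpr2.

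The 10 genes all had a lower deposited group mean in labelled cells, between 2.04-fold lower for S100a9 and 11.5-fold lower for Cxcr2 and for Cd300lb, with a median log2 ratio of -2.82 (2 libraries against 2). Over the 17197 genes with enough reads the median log2 ratio was -0.26, and a gene with no read at all has -0.39, because the deposited means give the shallower library of a group more weight. The log2 fold of geometric means of RPKM + 0.1, which does not depend on the assignment, had a median of -3.17 over the 10 genes and of 0.06 over all genes. In 8 of the 10, both unlabelled libraries lay above both labelled ones under every assignment, and the exceptions were S100a8 and S100a9. This was so for 13% of the 17197 genes. Because this comparison chose the 10 genes, nothing is read from these counts. The SD of log2 values within a group, pooled over the 10 genes, was 1.15.

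In the authors' deposited table, 6 of the 10 genes had an unadjusted p under 0.05, and 0.296% of all 47643 genes were lower and 0.598% higher at this level. Among the 17197 genes with enough reads, which hold all 10, 104 were lower and 271 higher. None of the 10 passed an FDR of 0.05; 0% of all genes did so in the lower direction and 0.0063% in the higher one. An exact two-sided permutation test of 2 libraries against 2 cannot give a p below 0.333.

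**Figure D1:**
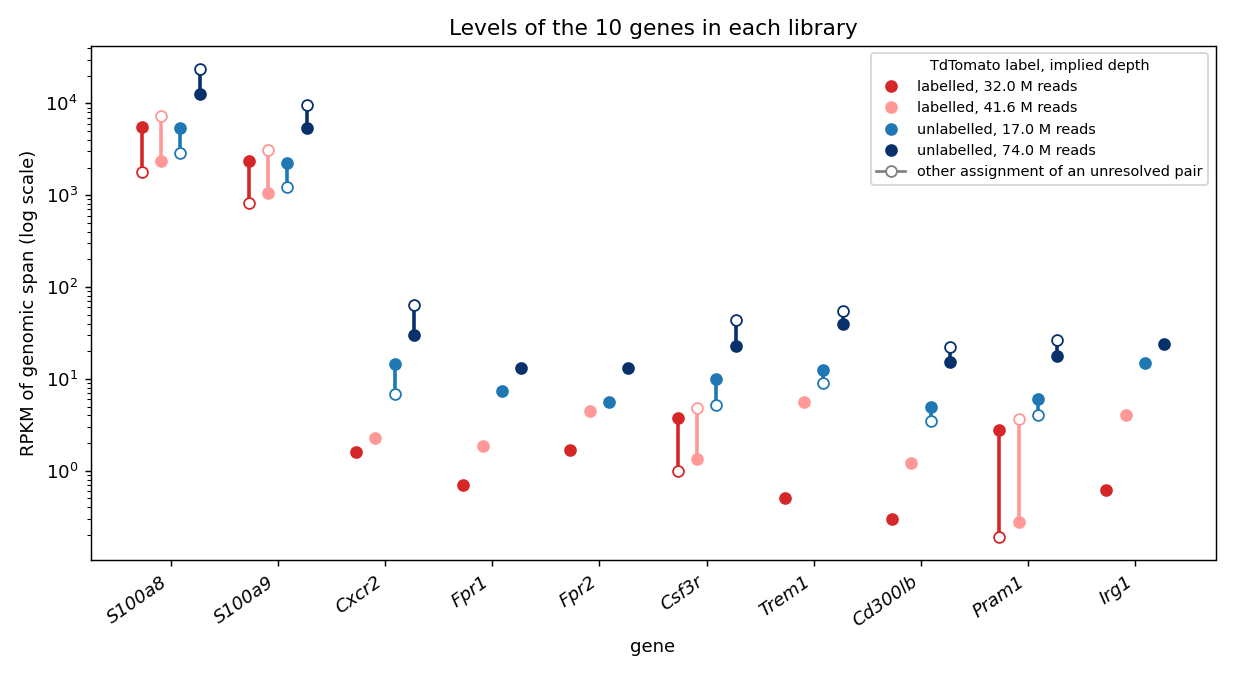
Level of each of the 10 genes (horizontal axis) in RPKM of genomic span on a log axis, in the 4 libraries. Filled points are the settled or less different assignment, open points joined by a line the other one; only S100a8 and S100a9 have overlapping labelled and unlabelled libraries.

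Cxcr2 (chr1:74153989-74161246, mm10) had 1.60 RPKM (370 reads) in the labelled library of 32.0 M reads and 2.29 RPKM (690 reads) in that of 41.6 M. In the unlabelled libraries it had 14.6 RPKM at 17.0 M and 30.0 RPKM at 74.0 M, or 6.80 and 64.0 RPKM with the other assignment. Both unlabelled libraries were high and both labelled ones low: the lowest unlabelled value was 2.98 times the highest labelled one. Cxcr2 also had the closest labelled pair of the 6 settled genes, with the library of 41.6 M reads 1.43 times that of 32.0 M.

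Fpr1 (chr17:17876471-17883940) had 0.695 and 1.84 RPKM in the labelled libraries of 32.0 and 41.6 M reads, from 166 and 573 reads. It had 7.47 and 13.2 RPKM in the unlabelled libraries of 17.0 and 74.0 M, from 947 and 7270 reads. The groups were apart, and the lowest unlabelled library had 4.05 times the highest labelled one, the widest gap of the 10 genes.

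Fpr2 (chr17:17887824-17893952), the neighbour of Fpr1, had 1.70 and 4.42 RPKM in the labelled libraries and 5.67 and 13.1 RPKM in the unlabelled ones, in the same order. These values rest on 332, 1127, 590 and 5940 reads. Positive and unlabelled libraries came close, at 1.28-fold between the nearest pair, and the deposited means were 3.14-fold lower in labelled cells, against 8.73-fold for Fpr1. Fpr1 had 0.500 and 0.508 reads per Fpr2 read in the labelled libraries and 1.61 and 1.22 in the unlabelled ones. The formyl peptide receptor genes thus changed places: Fpr2 had more reads in both labelled libraries and Fpr1 in both unlabelled ones, a description of 4 libraries without a test. Fpr2 overlaps the annotated gene Fpr3 on the same strand, and family members are similar in sequence, so the split of reads between them is uncertain.

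Csf3r (chr4:126024550-126044440) had 3.72 and 1.34 RPKM in the labelled libraries of 32.0 and 41.6 M reads, or 1.00 and 4.87 RPKM with the other assignment. It had 9.97 and 23.1 RPKM, or 5.21 and 43.8 RPKM, in the unlabelled libraries of 17.0 and 74.0 M. The groups did not overlap, but under the least favourable assignments the nearest pair differed by only 1.07-fold. The deposited means were 5.88-fold lower in labelled cells.

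Trem1 (chr17:48232768-48246924) amplifies inflammatory signals in neutrophils and monocytes. It had 0.500 RPKM (226 reads) and 5.54 RPKM (3262 reads) in the labelled libraries of 32.0 and 41.6 M. In the unlabelled libraries of 17.0 and 74.0 M it had 12.5 and 39.2 RPKM, or 8.92 and 54.8 RPKM. The labelled libraries differed from each other by 11.1-fold, the widest settled pair of the 10 genes, while the lowest unlabelled value was 1.61 times the highest labelled one. The pseudogene AC241601.2 lies within the span of Trem1 on the other strand.

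Cd300lb (chr11:114922781-114934386) had 0.302 RPKM (112 reads) and 1.22 RPKM (587 reads) in the labelled libraries. In the unlabelled libraries of 17.0 and 74.0 M reads it had 4.98 and 15.4 RPKM, or 3.45 and 22.04 RPKM. Both unlabelled libraries were above both labelled ones by at least 2.84-fold. Its span overlaps the pseudogene Gm11699 on the other strand.

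Pram1 (chr17:33638056-33645706) had 2.81 and 0.278 RPKM in the labelled libraries of 32.0 and 41.6 M reads, or 0.191 and 3.68 RPKM with the other assignment. In the unlabelled libraries of 17.0 and 74.0 M it had 5.99 and 18.0 RPKM, or 4.04 and 26.4 RPKM. One labelled library was thus near the unlabelled range, and the nearest pair differed by 1.10-fold. Pram1 overlaps Gm20507 on the same strand, so its reads are uncertain.

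Irg1 (chr14:103046977-103056573) had 0.623 and 4.07 RPKM in the labelled libraries of 32.0 and 41.6 M reads, from 191 and 1625 reads. It had 15.0 and 24.1 RPKM in the unlabelled libraries of 17.0 and 74.0 M, from 2451 and 17086 reads. The groups were 3.70-fold apart at their nearest values. The unlabelled libraries differed by 1.60-fold and the labelled ones by 6.53-fold.

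S100a8 (chr3:90668978-90670035) had 5565 and 2351 RPKM in the labelled libraries of 32.0 and 41.6 M reads, or 1805 and 7246 RPKM. In the unlabelled libraries of 17.0 and 74.0 M it had 5381 and 12518 RPKM, or 2871 and 23459 RPKM. S100a9 (chr3:90692632-90695721), on the opposite strand and 22596 bases away, had 2368 and 1064 RPKM, or 817 and 3084 RPKM, in the labelled libraries. It had 2226 and 5338 RPKM, or 1224 and 9705 RPKM, in the unlabelled ones. For both genes the unlabelled library of 74.0 M reads was high and the other 3 libraries overlapped. The deposited means were 2.11-fold lower for S100a8 and 2.04-fold lower for S100a9 in labelled cells, the smallest folds of the 10. A single library moved these folds, here under the assignment printed first. The log2 ratio of S100a8 was -2.11 without the labelled library of 32.0 M reads and -0.48 without that of 41.6 M. It was -0.55 without the unlabelled library of 17.0 M, and the values for S100a9 were, in this order, -1.99, -0.46 and -0.53. Neither gene had a settled pair, so which library of a group moved the folds is not settled.

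The calprotectin genes made up a visible share of the RNA in every library. Their summed reads were 1.32% and 0.578% of the implied depth in the labelled libraries of 32.0 and 41.6 M, or 0.444% and 1.72%. They were 1.26% and 2.97% in the unlabelled libraries of 17.0 and 74.0 M, or 0.682% and 5.48%. These shares took the same assignment for both genes. On that basis S100a8 had between 0.756 and 0.828 reads per S100a9 read across libraries, and the ratio varied far less than the level. Each gene was unsettled by itself and mixed assignments were not computed, so the ratio of the subunits is not settled.

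Per kilobase of exon, where genes can be ranked with introns left aside, the geometric mean level in unlabelled cells was highest for S100a9 (20407) and S100a8 (12512). Trem1 followed at 105 reads per exonic kilobase and per M reads, then Csf3r at 84.2, Irg1 at 70.0, Fpr1 at 56.5, Cxcr2 at 50.1, Fpr2 at 41.3, Cd300lb at 35.3 and Pram1 at 32.6. These include the offset of 0.1 RPKM. From Trem1 down, each step between neighbours was smaller than the 1.60-fold that separated the closest settled pair of unlabelled libraries, so neighbours were not ordered beyond their spread. In labelled cells S100a9 (9398) and S100a8 (5514) again led by a wide margin. Fpr2 at 13.5 and Csf3r at 12.9 came next, ahead of Trem1 at 8.69, Fpr1 at 7.02, Irg1 at 6.35, Cxcr2 at 4.79, Pram1 at 3.26 and Cd300lb at 2.89. Fpr2 thus stood below Fpr1 and Cxcr2 in unlabelled cells and above both in labelled ones, though steps of this size were within the spread between libraries.

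The libraries of a group were not alike for these genes. In each of the 6 genes with a settled labelled pair, the library of 41.6 M reads had more than that of 32.0 M, by 1.43-fold to 11.1-fold with a median of 3.34-fold. Over 11590 genes with a settled labelled pair the median ratio was 0.877, with quartiles of 0.353 and 1.79. For Csf3r, Pram1, S100a8 and S100a9 the assignment printed first, which the fits used, put the library of 32.0 M reads higher instead. Their other assignment put that of 41.6 M higher. In unlabelled cells the library of 74.0 M exceeded that of 17.0 M by 1.60-fold to 2.31-fold in the 3 settled genes, against a median of 1.18 over 12546 genes. With 1 RNA pool per library, fewer neutrophils in a sort and less of these RNAs per cell cannot be told apart.

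Markers of other cells moved with the same comparison. Of the 8 neutrophil markers, all had a lower geometric mean in labelled cells and none was at 0 in either group, with summed levels of 995 to 4666 RPKM in labelled and 3600 to 9225 RPKM in unlabelled libraries. Of 13 monocyte and macrophage markers, 4 were lower and 9 higher, and the sums overlapped, at 205 to 632 RPKM against 198 to 420 RPKM. All 8 eosinophil markers were lower, with sums of 4.83 to 27.5 RPKM against 208 to 635 RPKM. All 7 measured mast cell and basophil markers were lower as well, at 1.31 to 5.14 RPKM against 19.0 to 46.3 RPKM. The 6 pan-leukocyte, 8 B cell, 8 T and NK cell and 8 erythroid markers were also all lower, with median log2 folds of -1.35, -1.02, -1.52 and -1.32. In these lists the sums overlapped between the groups. They were 32.6 to 183 against 80.0 to 514 RPKM for pan-leukocyte and 12.2 to 55.4 against 19.7 to 198 RPKM for B cell markers. For T and NK cell markers they were 8.31 to 61.0 against 31.5 to 49.8 RPKM. All 9 chondrocyte markers were higher, at 221 to 1147 RPKM against 0.146 to 49.4 RPKM, and all 8 platelet markers had a higher geometric mean. For platelets the labelled library of 41.6 M reads set the difference: over the 7 settled markers the median was 8.22 RPKM there, 0.627 RPKM in that of 32.0 M, and 0.788 and 0.406 RPKM in the unlabelled libraries. In 3 of the 8 markers both labelled libraries lay above both unlabelled ones, as in 15.4% of the 17197 genes with enough reads. The part of these cells in the levels of the 10 genes was not tested.

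Other genes of the pathway were taken from 11 lists with 129 measured genes. In the authors' deposited table none of them passed an FDR of 0.05, while 7 were lower and 5 higher at an unadjusted p under 0.05. At this unadjusted level, 104 of the 17197 genes with enough reads were lower and 271 higher. limma on log2(RPKM + 1) of the solved values called 0% of 6860 genes at an adjusted p under 0.05, with 4.17% lower and 6.46% higher at an unadjusted p under 0.05. With 1 labelled library left out limma called some genes at an adjusted p under 0.05: 0.648% of 6323 genes lower and 1.76% higher without that of 41.6 M reads, and 0.0161% of 6194 genes lower and 0.0969% higher without that of 32.0 M. Among the pathway genes these were 6 lower and 1 higher in the former, and 1 higher in the latter. The labelled group had no replicate in either of these fits, so nothing is read from their counts. In the list counts that follow, direction is that of the geometric means of RPKM + 0.1, for which 46.1% of all genes tested were lower.

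Most other receptors of the neutrophil surface had the same direction as the 10 genes. Of 30 other neutrophil surface receptors, 29 were lower in labelled cells, with a median log2 fold of -1.93. At an unadjusted p under 0.05 in the authors' deposited table, 4 of them were lower, against 104 of the 17197 genes with enough reads. limma gave 12 of the 27 it fitted an unadjusted p under 0.05, all lower, against 4.17% of all 6860 genes fitted. Itgal, an integrin chain of leukocytes, had 0.155 and 0.660 RPKM in the labelled libraries of 32.0 and 41.6 M reads and 1.62 and 5.29 RPKM in the unlabelled ones of 17.0 and 74.0 M. Itgam, which pairs with Itgb2 to form the neutrophil integrin Mac-1, had 0.350 and 2.39 RPKM against 4.27 and 16.03, or 3.60 and 18.9, RPKM. Il1r2, a decoy receptor for interleukin-1, had 0.214 and 1.35 RPKM against 3.05 and 7.53, or 1.65 and 13.6, RPKM. Cd177, a neutrophil surface protein, had 11.3 and 5.66, or 4.32 and 14.8, RPKM against 30.3 and 85.9, or 19.6 and 132, RPKM. In these 4 genes, and in 12 of the 30 in all, both unlabelled libraries lay above both labelled ones, as in 13% of all genes tested. The exception among the 30 was C3ar1, the receptor of complement fragment C3a, with 1.502 and 6.17 RPKM in labelled and 1.57 and 0.250 RPKM in unlabelled libraries.

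The genes of the ligands were mixed in direction. Of 10 ligand genes, 7 were higher in labelled cells and the median log2 fold was 1.18. The lower ones were Pglyrp1, Anxa1 and Camp, with log2 folds of -1.29, -0.64 and -0.56. Cxcl1, a ligand of Cxcr2, had 350 and 150, or 115 and 456, RPKM in the labelled libraries of 32.0 and 41.6 M reads, and 68.8 and 1.59 RPKM in the unlabelled ones of 17.0 and 74.0 M. Both labelled libraries were above both unlabelled ones, with an unadjusted p of 0.00393 and an FDR of 1.00 in the authors' deposited table. Csf3, which encodes the ligand of Csf3r, had 5.18 and 1.88 RPKM (392 and 185 reads) against 0.523 and 0.537 RPKM (21 and 94 reads), again without overlap. Both labelled libraries lay above both unlabelled ones in only these 2 of the 10 ligand genes, near the 15.4% of all genes tested, so nothing is read from it. Ppbp, a platelet chemokine whose product binds Cxcr2, reached 611 RPKM in the labelled library of 41.6 M reads but 1.15 RPKM in that of 32.0 M, against 7.09 and 0.568 RPKM in the unlabelled ones. Saa3, whose product is a ligand of Fpr2, had 0.0255 and 2.50 RPKM against 0.144 and 0.162 RPKM. For Ppbp and Saa3, 1 labelled library therefore set the difference.

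**Figure D2:**
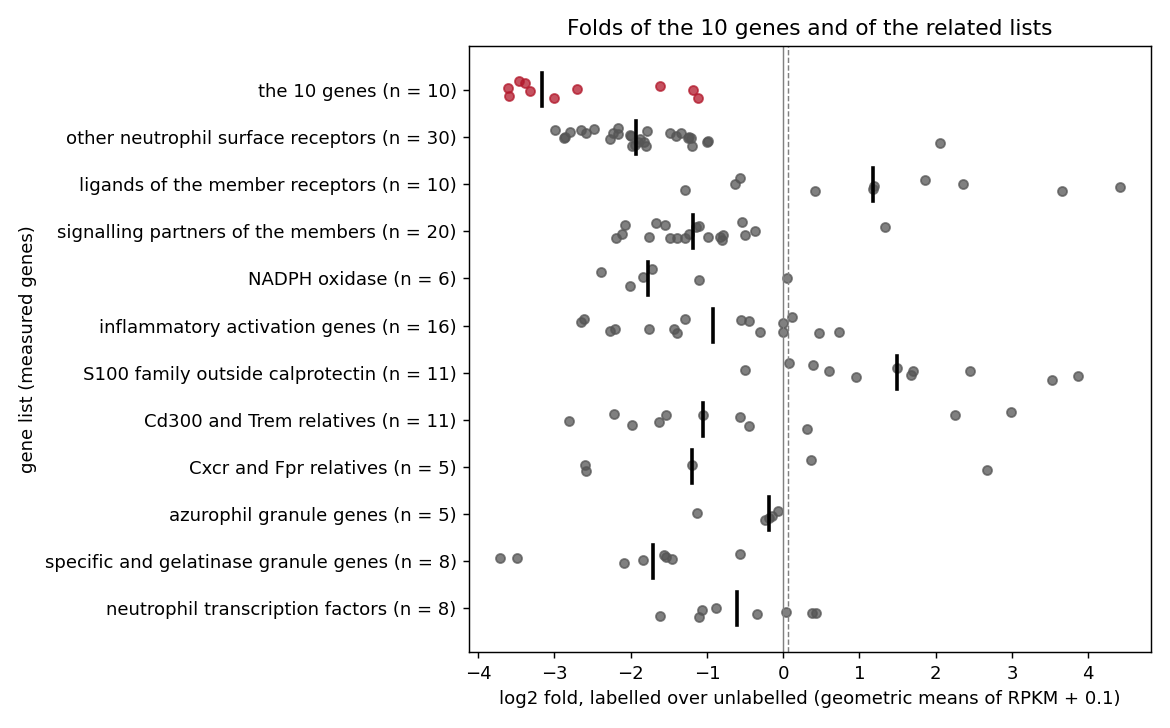
Log2 fold of labelled over unlabelled cells (horizontal axis, geometric means of RPKM + 0.1) for each gene of the 10 and of the 11 lists; points are genes, black bars list medians, the dashed line the median of all genes. The 10 genes have a median of -3.17, and the ligand list and the S100 list have medians above 0.

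Genes that carry the receptor signals had smaller folds. Of 20 signalling partners, 19 were lower in labelled cells with a median log2 fold of -1.19. None had an unadjusted p under 0.05 in the authors' deposited table, and limma gave 2 of the 14 it fitted an unadjusted p under 0.05. Of all genes limma fitted, 4.17% were lower at this level. Syk, the kinase downstream of Tyrobp, had 0.392 and 0.985 RPKM in labelled and 1.54 and 5.64, or 1.22 and 7.06, RPKM in unlabelled libraries, which did not overlap. Card9, an adaptor downstream of Syk, had 0.240 and 0.756 RPKM against 1.54 and 1.94 RPKM. The kinase gene Fgr had 0.435 and 1.64 RPKM against 2.67 and 6.997, or 1.53 and 11.99, RPKM, and Pik3cg had 0.0552 and 0.900 RPKM against 0.693 and 3.58 RPKM. Of 6 subunit genes of the NADPH oxidase, which makes the superoxide burst, 5 were lower with a median of -1.77, and limma gave 3 of the 6 an unadjusted p under 0.05. Its catalytic subunit gene Cybb had 1.06 and 4.64 RPKM against 6.85 and 21.5, or 4.87 and 30.2, RPKM.

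Of 16 inflammatory activation genes, 13 were lower in labelled cells, with a median log2 fold of -0.92. None had an unadjusted p under 0.05 in the authors' deposited table, against 3 of the 15 that limma fitted, all lower. The share over all genes limma fitted was 4.17%. Il1b, which encodes an interleukin-1 cytokine, had 9.11 and 32.9 RPKM in the labelled libraries and 75.7 and 85.3, or 19.5 and 330, RPKM in the unlabelled ones. Nlrp3, the inflammasome sensor, had 0.195 and 0.993 RPKM against 1.75 and 1.91 RPKM. The groups were apart for Nlrp3, and for Il1b they were apart only under the first assignment. Arg2 had 0.722 and 0.0927, or 0.0480 and 0.970, RPKM against 1.46 and 3.90, or 0.819 and 6.70, RPKM, and Hdc, which makes histamine, had 5.64 and 1.72, or 1.30 and 7.37, RPKM against 14.4 and 26.8, or 6.07 and 63.1, RPKM.

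Close relatives of the 10 genes did not all share their direction. In the S100 family outside calprotectin, 10 of 11 measured genes were higher in labelled cells, with a median log2 fold of 1.496, and in 6 of them both labelled libraries were above both unlabelled ones, as in 15.4% of all genes tested. S100a10 had 53.1 and 31.5 RPKM in the labelled libraries and 17.4 and 9.31 RPKM in the unlabelled ones, S100b, a chondrocyte and glial protein, had 2.78 and 0.605 RPKM against 0.580 RPKM and no reads, and S100g had 1.20 and 1.09 RPKM against no reads and 0.0155 RPKM. S100a1 had 14.7 and 17.4, or 13.4 and 19.2, RPKM against 5.63 and 4.20 RPKM. The log2 folds of S100a16, S100a4, S100a13, S100a6, S100a7a and S100a3 were 3.87, 1.496, 0.96, 0.60, 0.39 and 0.08, and that of S100a11 was -0.50, while S100a5 and S100a14 had too few reads.

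Of 11 Cd300 and Trem relatives, 8 were lower and 3 higher in labelled cells. Cd300ld and Cd300lf, neighbours in the family of Cd300lb, had log2 folds of -2.81 and -2.22, and Cd300a had -1.63. Trem3 had 1.62 and 8.39 RPKM against 5.39 and 11.3 RPKM, whereas Trem2, a macrophage receptor, had 1.49 and 6.11 RPKM against 0.730 and 0.420 RPKM. Treml1, a platelet receptor, had 0.0259 and 6.74 RPKM (6 and 2035 reads) against no reads and 0.0372 RPKM (20 reads). The log2 folds of Treml4, Treml2, Cd300e, Cd300c and Cd300lg were -1.99, -1.54, -0.56, -0.45 and 0.31. Trem1 and Trem2, relatives that mark different myeloid cells, thus had opposite directions.

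Of 10 Cxcr and Fpr relatives, 5 had enough reads. Cxcr1 had no reads in either labelled library and 0.641 and 0.384 RPKM in the unlabelled ones, while Fpr3 had 1 read in all and Fpr-rs3, Fpr-rs4, Fpr-rs6 and Fpr-rs7 had none. Cxcr6 had 0 and 3 reads in the labelled libraries and 0.893 and 0.318 RPKM in the unlabelled ones, and the log2 folds of Cxcr5 and Cxcr3 were -1.20 and 0.36. Ackr3, a scavenging chemokine receptor, had 13.7 and 4.57 RPKM in labelled and 10.8 and 0.0444 RPKM in unlabelled libraries, with a log2 fold of 2.68 on geometric means but -0.24 on the deposited means.

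Granule genes divide neutrophil maturation into stages, with azurophil proteins made first, specific granule proteins next and gelatinase last. All 8 specific and gelatinase granule genes were lower in labelled cells, with a median log2 fold of -1.70. Mmp8, neutrophil collagenase, had 3.86 and 14.8 RPKM in the labelled libraries and 65.4 and 154 RPKM in the unlabelled ones. Mmp9, gelatinase B, had 7.49 and 5.30, or 4.04 and 9.78, RPKM against 43.9 and 118, or 27.0 and 192, RPKM. Retnlg had 97.1 and 462 RPKM against 575 and 1410 RPKM, and Ltf, lactoferrin, had 81.9 and 41.4, or 31.8 and 107, RPKM against 116 and 378, or 86.6 and 504, RPKM. Mmp8 and Mmp9 had log2 folds of -3.71 and -3.49, against -3.61 for Cd300lb, the lowest of the 10 genes on this scale.

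Azurophil genes with settled values had another pattern over the 4 libraries, shared by the specific granule gene Camp. Elane, neutrophil elastase, had 46.3 and 785 RPKM in the labelled libraries of 32.0 and 41.6 M reads and 140 and 320 RPKM in the unlabelled ones of 17.0 and 74.0 M. Ctsg had 5.83 and 66.7 RPKM against 14.8 and 34.0 RPKM, Ms4a3 had 1.26 and 13.2 RPKM against 2.83 and 6.73 RPKM, and Prtn3 had 3.47 and 55.2 RPKM against 12.8 and 21.3, or 4.799 and 56.2, RPKM. In Elane, Ctsg and Ms4a3 the labelled library of 41.6 M was the highest of the 4, whereas Fpr1, Fpr2 and Irg1 were lower there than in both unlabelled libraries. That library was also the highest for Camp, at 244 and 1722 RPKM against 746 and 1234 RPKM, with a log2 fold of -0.56. Mpo, the other azurophil gene, was settled in neither group and had a log2 fold of -1.13. It had 146 and 15.9, or 12.15 and 190, RPKM against 61.7 and 181, or 41.4 and 269, RPKM. The median log2 fold of the 5 azurophil genes was -0.18 on geometric means and 0.45 on the deposited means, so its sign depended on how the libraries were averaged.

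**Figure D3:**
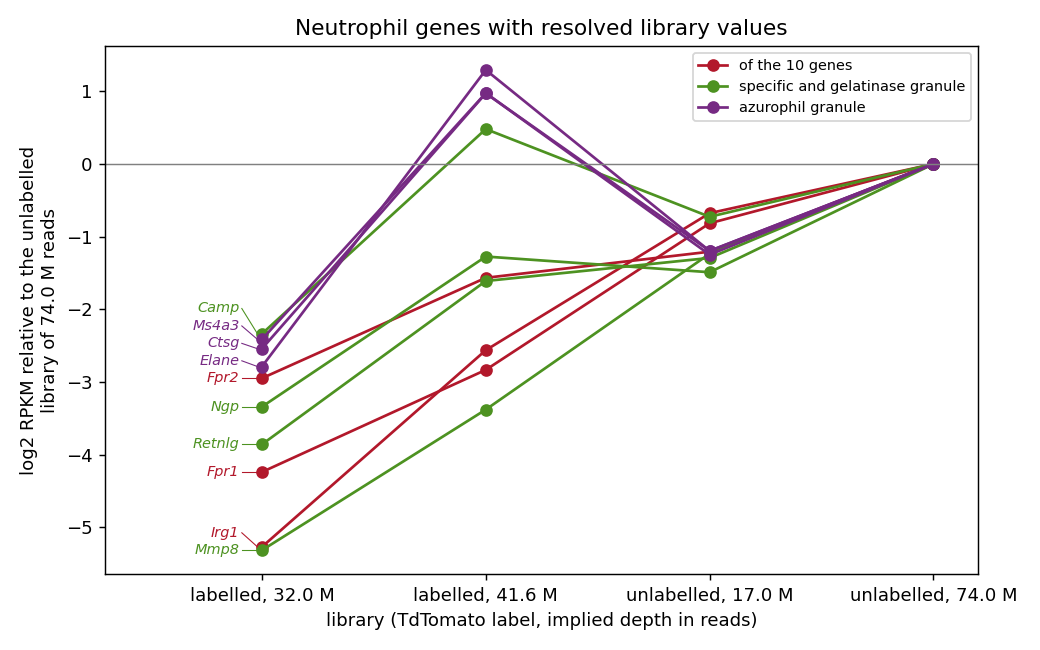
Log2 RPKM relative to the unlabelled library of 74.0 M reads (vertical axis) in the 4 libraries (horizontal axis), for genes with settled values; each line joins the values of 1 gene and the libraries have no order within a group. The azurophil granule genes shown and the specific granule gene Camp lie above 0 in the labelled library of 41.6 M reads, and Fpr1, Fpr2 and Irg1 lie below it.

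Among transcription factor genes of the lineage, 5 of 8 were lower and the median log2 fold was -0.61. Gfi1, which restrains monocyte genes, had 0.234 and 1.11 RPKM in labelled and 1.56 and 2.18 RPKM in unlabelled libraries. Cebpe, needed for specific granules, had 7.39 and 27.6 RPKM against 30.5 and 29.6 RPKM. Spi1 had 1.30 and 5.75 RPKM against 4.26 and 8.58 RPKM, and Klf5 had 1.59 and 1.86 RPKM against 2.67 and 3.93 RPKM. The groups overlapped for Spi1 and not for the other 3, though the nearest values of Cebpe were close. Both unlabelled libraries lay above both labelled ones in 3 of the 8 genes, as in 13% of all genes tested. Cebpa, Cebpd and Runx1 were higher in labelled cells, with log2 folds of 0.44, 0.37 and 0.04. Cebpa had 4.67 and 6.98 RPKM against 4.47 and 3.93 RPKM. Both labelled libraries were thus the higher ones for Cebpa, as in 15.4% of all genes tested.

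The genes most like Irg1, Fpr1 and Fpr2 over the 4 libraries were sought among genes with settled values and at least 100 reads, by the largest deviation from the median profile of these 3 on the log2 scale. The 5 nearest were the lincRNA gene 4833407H14Rik, with a largest deviation of 0.17, Slfn1 with 0.25, Trim30b with 0.30, Olfm4, which marks a subset of neutrophils, with 0.34, and Slc40a1, the iron exporter ferroportin, also with 0.34. Slfn1 had 1.17 and 3.25 RPKM in the labelled libraries and 10.03 and 21.2 RPKM in the unlabelled ones. With 4 libraries this likeness is a description of these samples.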

How the data were processed

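RNA of TdTomato-positive and TdTomato-negative periosteal cells was sequenced as 75-nucleotide paired reads, 2 libraries per group, per the labels' protocols. Per the submitters' processing notes STAR, Partek and mm10 were used, with no version given. Per the file headers, the authors' table holds group means of a normalized signal, a highest value and a sum as scores, a difference on the natural log scale, a ratio of means, a signed fold change, a p-value and an FDR.

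The 4 library values of each gene were solved from the highest value, both means and the log difference, with exactly 1 solution for all 47643 genes. They matched RPKM plus an offset of 0.1, divided again by depth and span. This scale, the offset and the depths are inferred from the values and stated in no header. Which of a group's values came from which library was decided by whole reads, with a tolerance of 0.01 plus 1e-07 times the reads (0.05 at most), or 0.002 where 1 value alone decided. This settled both groups for 11628 (67.6%) of the 17197 genes that had 10 or more reads in 2 or more libraries. Printed first for the others is the less different assignment, which the fits used. The solution was tested on simulated data: of genes with whole reads 99.9% were settled, 100% of these correctly; with fractional reads 16.7% were, 98.7% of these correctly.

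Deposited ratios are the main folds, since the members were defined on those means. The authors' p-values are two-sided. limma 3.58.1 (R 4.3.3) was fitted to log2(RPKM + 1) for genes with at least 1 RPKM in 2 libraries, with Benjamini-Hochberg adjustment. Python 3.11.15 did the rest. The members and lists were chosen with earlier results of these data known. Named genes were, per list, up to 4 with the largest deposited ratio change among those with a group mean of at least 1 RPKM, plus relatives of the members. Exon lengths are from GENCODE M21 and promoters from RefSeq. Alternatives covered the offset, the scale, the mean, the assignment, each library left out, a replicate block and the test.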

Additional observations from a re-analysis of the deposited data

How the results depend on the processing

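With 2 libraries per group, values rest on pools of mice, and 7 of the 10 genes have at least 1 pair of libraries whose order is not settled. The median log2 ratio of the 10 genes was -2.82. It was -1.10 with an offset of 10 RPKM, which is above every labelled value of the 8 genes other than S100a8 and S100a9, and from -3.11 to -2.30 when each library was left out in turn. No collection number is attached to any value, so both possible pairings were tried: with a replicate block the median was -3.17 in each, the geometric mean fold. The count of genes with both unlabelled libraries above both labelled ones was 8; it was 3 among the 3 genes settled in both groups, and 5 on a scale of shares of the summed level. Of the pathway genes, 0 were called in either direction at the authors' FDR, against 7 lower and 5 higher at an unadjusted p under 0.05. At this unadjusted level, 104 of the 17197 genes with enough reads were lower and 271 higher. With each library left out, limma called 0 to 6 lower and 0 to 1 higher at an adjusted p under 0.05. The 6 came without the labelled library of 41.6 M reads, where 1 labelled library is assumed to vary like the unlabelled ones. The labelled group then had no replicate, so nothing is read from that count. limma with the replicate block called 0 genes in either pairing. For single genes, 119 of 130 alternative folds moved by less than 1 SD and none changed sign. The count holds both replicate block settings, which repeat the geometric mean fold by construction. With each library left out, the log2 ratio ran from -3.97 to -2.88 for Cxcr2, -3.65 to -2.32 for Fpr1, -2.21 to -1.11 for Fpr2 and -4.34 to -3.01 for Cd300lb. Without the labelled library of 41.6 M reads, Trem1 had -5.08 and Irg1 -4.75. Without that of 32.0 M, Pram1 had -5.05 and Csf3r -3.71, but their labelled pairs were not settled. All values with a library left out used the assignment printed first for unsettled pairs.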
